A study of Mus musculus with 13 samples.

Results

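Minar1, Plpp1, Cfap54, Drp2, Kif5c and Npl are 6 genes that are not among the textbook genes of the acid-secreting parietal cell. They were chosen by their values on these arrays: each was brighter on both arrays of sorted parietal cells than on all 3 arrays of sorted chief cells, so the difference between parietal and chief cells is a description here and was not tested. They are 6 of 18820 genes with a probeset of their own, and each is followed on the brightest probeset that names it alone. Values are log2 intensities from Affymetrix arrays, where a step of 1 is a doubling, and their precision is limited by how few arrays each group has. In bulk RNA of this kind, fewer cells of a type and less RNA per cell cannot be told apart.

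The study had 2 experiments on the mouse gastric corpus, the acid-producing body of the stomach. In the first, mice carried an EGFP-ires-CreERT2 cassette at the start of Tnfrsf19, so that EGFP marked cells in which the regulatory sequences of this gene were active. Its product, Troy, is a member of the TNF receptor superfamily. Corpus glands pooled from 10 mice per array were freed with EDTA and trypsinized, and about 100000 Troy-positive chief cells (3 arrays, a to c) or Troy-positive parietal cells (2 arrays, a and b) were sorted by flow cytometry. Whole corpus glands (2 arrays, a and b) were processed directly as the reference, and their labels give no genotype. Sorting and cell type therefore cannot be told apart between sorted cells and glands. In the second, organoids grown from single sorted Troy-positive chief cells were kept in EGFNWR medium, with EGF, gastrin, FGF10, Noggin, Wnt3a and Rspondin (3 arrays), or in ER medium, with EGF and Rspondin only (3 arrays). Each organoid culture, named by a letter, gave an array in each medium; the labels do not say that cultures came from different animals, so p-values measure the spread between these arrays. The 2 experiments share no group, and a level set across them cannot be told apart from the experiment. The growth protocol speaks of intestines for the first experiment, where every other label says gastric corpus; the latter was taken as correct.

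Parietal cells pump protons into the gland lumen through the ATPase built from Atp4a and Atp4b, and they depend on dense mitochondria and on a store of membranes that is moved to the cell surface when acid is needed. Chief cells lie at the gland base and secrete pepsinogen. The 6 genes act in different processes: signalling at the membrane (Minar1), lipid phosphate turnover (Plpp1), the ciliary axoneme (Cfap54), the dystrophin complex (Drp2), transport along microtubules (Kif5c) and sialic acid breakdown (Npl).

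Some arrays stood apart from their label. The reporter gene Tnfrsf19 had means of 7.97 ± 0.55 (SD, n = 3) on chief, 8.52 ± 0.28 (SD, n = 2) on parietal and 5.16 ± 0.34 (SD, n = 2) on gland arrays. The chief cell gene Pga5 was 10.47, 10.79 and 8.90 on chief a, b and c, against 7.22 and 7.25 on the parietal arrays, and Atp4b was 12.65 to 13.28 on chief arrays and 13.22 to 13.29 on parietal arrays. Transcripts of parietal cells were thus present on the chief arrays: the log2 of the summed intensity of 20 parietal markers was 15.81, 15.20 and 16.08 on chief a, b and c, 16.19 and 16.17 on parietal a and b, and 15.78 and 15.51 on glands a and b. Transcripts of chief cells were likewise present on the parietal arrays. The pepsinogen gene Pgc was 13.46 to 13.62 on chief arrays, 13.14 and 13.40 on parietal arrays, and 13.37 and 13.26 on glands. The log2 sum of 9 chief cell markers was 15.72, 15.72 and 15.40 on chief a, b and c. It was 15.12 and 15.09 on parietal a and b, and 15.27 and 14.85 on glands a and b. Over all probesets, chief c correlated at 0.979 and 0.982 with the parietal arrays and at 0.95 and 0.961 with chief a and b. Chief b alone carried squamous transcripts, with Krt5 at 11.85 against 6.37 on chief a and 4.25 on chief c. Each parietal minus chief difference of the 6 genes is therefore also given without chief c. Of the genes around them, those that passed the adjusted threshold without chief c are named.

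RefSeq promoter windows were at hand for 3 of the 6 genes, Minar1, Kif5c and Npl, and are shown because these genes were high on the same 2 arrays. Each window is the 250 bases before the gene's start in GRCm38.p6, read 5′ to 3′ on the strand of the gene: Minar1 at chr9:89622987-89623236 (minus strand), Kif5c at chr2:49619036-49619285 (plus strand) and Npl at chr1:153549715-153549964 (minus strand). Capitals mark matches to 5 short motifs, described after the sequences.
Minar1: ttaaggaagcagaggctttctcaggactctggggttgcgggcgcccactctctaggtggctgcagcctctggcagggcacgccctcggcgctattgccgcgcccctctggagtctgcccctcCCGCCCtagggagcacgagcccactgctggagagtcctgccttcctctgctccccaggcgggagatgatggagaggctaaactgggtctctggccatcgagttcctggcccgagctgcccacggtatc
Kif5c: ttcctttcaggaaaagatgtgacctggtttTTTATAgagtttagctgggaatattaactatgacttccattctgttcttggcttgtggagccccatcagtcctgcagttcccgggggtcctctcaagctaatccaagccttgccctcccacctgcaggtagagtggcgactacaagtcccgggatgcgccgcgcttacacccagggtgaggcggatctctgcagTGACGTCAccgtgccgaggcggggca
Npl: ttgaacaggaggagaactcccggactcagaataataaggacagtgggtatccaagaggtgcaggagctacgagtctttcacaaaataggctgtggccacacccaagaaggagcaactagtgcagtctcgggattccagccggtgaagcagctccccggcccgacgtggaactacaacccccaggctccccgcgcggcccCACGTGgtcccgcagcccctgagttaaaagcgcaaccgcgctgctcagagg

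The 3 windows were rich in G and C, at 65.6% for Minar1, 55.2% for Kif5c and 59.6% for Npl, against a median of 52.4% over 32851 RefSeq windows of the same length. They held 13, 11 and 15 CG pairs, where the median window held 6 and the 10th to 90th percentile ran from 1 to 25. The motifs were chosen after the sequences were seen and were searched on both strands, and no 2 matches overlapped. Kif5c held the cAMP response element TGACGTCA 26 bases before its start, a motif found in 1.55% of all windows, and the TATA box letters TATAAA on the opposite strand 220 bases before it, found in 12.4%. Minar1 held the GC box GGGCGG on the opposite strand 128 bases before its start, found in 32.7% of windows. Npl held the E-box CACGTG 51 bases before its start, found in 6.02%. The element TCAAGGTCA, bound by oestrogen-related receptors and found in 0.387% of windows, was in none of the 3 windows. No motif was shared by any 2 of the 3 windows.

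Minar1 encodes a membrane protein that associates with Notch2 and restrains mTOR signalling through Deptor. Its level was 6.26 and 6.14 on parietal a and b, and 3.72, 4.00 and 4.80 on chief a, b and c. It was 4.87 and 4.64 on the glands, 3.63 to 3.81 on EGFNWR organoids and 3.71 to 3.91 on ER organoids. Only the parietal arrays lay above the median of their array, and the lowest of them lay 1.27 above the brightest of the 11 others. The fitted difference between parietal and chief cells was 2.03 (SE 0.31), or 4.07-fold, and 2.34 without chief c. In the values that chose the genes, it was the 36th largest positive difference of the 18820 genes. The others of the 6 stood between 82nd (Kif5c) and 381st (Drp2), and nothing is read from these places.

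Plpp1 encodes a lipid phosphate phosphatase that removes phosphate from lysophosphatidate and related lipids at the cell surface. Its level was 8.27 and 8.29 on the parietal arrays, 6.87, 6.28 and 7.08 on chief a, b and c, and 6.47 and 6.62 on the glands. EGFNWR organoids a, b and c stood at 6.24, 6.42 and 7.01, and ER organoids a, b and c at 7.19, 7.17 and 7.73. Plpp1 was above the median of all 13 arrays. The parietal arrays lay 1.19 above the highest chief array and 0.54 above the highest ER array, and the ER arrays in turn lay 0.09 above the highest chief array. Parietal minus chief was 1.54 (SE 0.25), or 2.9-fold, and 1.71 without chief c.

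Cfap54 encodes a protein of the central apparatus, the pair of microtubules and their projections in the core of motile cilia. Its level was 6.03 and 5.56 on parietal a and b, and 4.10, 4.08 and 4.69 on chief a, b and c. The glands were at 4.36 and 4.26, EGFNWR organoids at 3.88 to 4.09 and ER organoids at 3.71 to 3.95. Again only the parietal arrays exceeded their array median, and they differed from each other by 0.47, the widest gap between parietal a and b among the 6 genes. Parietal minus chief was 1.50 (SE 0.25), or 2.84-fold, and 1.71 without chief c. A second probeset of Cfap54 was below the median of all 13 arrays, at 4.32 and 4.27 on the parietal arrays and 3.50 to 3.92 on the chief arrays, a difference of 0.64 (SE 0.21). The 2 probesets shared the direction, but the dimmer one gave a smaller difference, and the mean of both gave 1.07.

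Drp2 encodes a relative of dystrophin that joins periaxin to dystroglycan in Schwann cells, the glia of peripheral nerves. Its level was 5.06 and 4.90 on the parietal arrays, 3.89, 3.97 and 4.08 on chief a, b and c, and 4.02 and 3.99 on the glands. Organoids lay between 3.74 and 4.01 in EGFNWR medium and between 3.82 and 4.32 in ER medium. Drp2 was below the median of all 13 arrays, parietal arrays included, and no detection call was used, so it was not shown to exceed background. Parietal minus chief was 1.00 (SE 0.17), or 2.0-fold, and 1.05 without chief c. Of the 6 genes it was the closest to the limit of the rule: its lower parietal array lay 0.82 above its highest chief array, while for Minar1 that gap was 1.34. No gene just outside the limit is listed among the 6.

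Kif5c encodes a heavy chain of kinesin-1, the motor that carries cargo outward along microtubules, and is best known from neurons. Its level was 6.48 and 6.26 on the parietal arrays, 4.54, 4.41 and 5.25 on chief a, b and c, and 5.82 and 5.52 on the glands. EGFNWR organoids a, b and c stood at 4.33, 4.31 and 4.63, and ER organoids a, b and c at 5.97, 4.86 and 5.15. Besides the parietal arrays, both gland arrays, chief c and ER a and c exceeded their array median. Parietal minus chief was 1.64 (SE 0.28), or 3.11-fold, and 1.90 without chief c. The gap to the brightest other array, ER a, was 0.29, the smallest such gap of the 6 genes.

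Npl encodes N-acetylneuraminate pyruvate lyase, which breaks sialic acid into N-acetylmannosamine and pyruvate. Its level was 6.07 and 5.77 on parietal a and b, 4.40, 4.16 and 4.89 on chief a, b and c, and 4.70 and 4.51 on the glands. EGFNWR organoids lay at 4.13 to 4.41 and ER organoids at 4.09 to 4.21. The parietal arrays were the only ones above their array median. Parietal minus chief was 1.44 (SE 0.25), or 2.71-fold, and 1.64 without chief c.

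**Figure D1:**
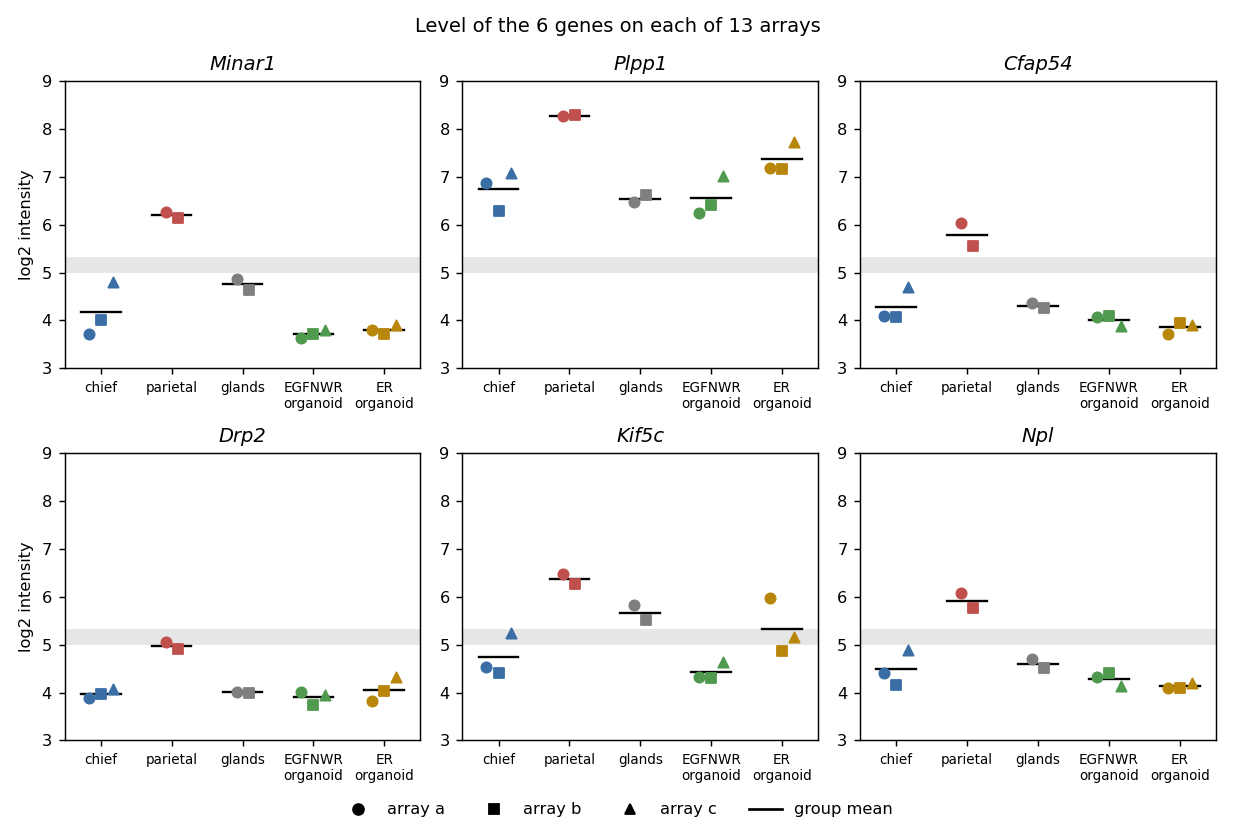
Level of the 6 genes on each of the 13 arrays, in log2 intensity, with a symbol per array letter, a bar at each group mean and a grey band over the range of the array medians, 5.01 to 5.30. The 2 parietal arrays sit above the other 11 in every panel; Drp2 does not lie above the band, and Plpp1 and Kif5c are higher in ER than in EGFNWR organoids.

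All 6 genes met the rule that chose them, which 19.2% of all genes also met, so nothing is read from that count. Their median difference between parietal and chief cells was 1.52, against 0.04 over all genes. The highest chief array was chief c for each of the 6, the chief array nearest to the parietal arrays. On chief c they lay between 0.15 (Drp2) and 0.94 (Minar1) above the mean of chief a and b, and between 0.9 (Drp2) and 1.4 (Minar1) below the parietal mean. All 6 were higher on both parietal arrays than on the other 11 arrays, where 10.3% of all genes were; any such gene also meets the rule that chose the 6.

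The order of the remaining groups differed among the genes. After parietal cells came the glands for Minar1, Cfap54, Kif5c and Npl, and ER organoids for Plpp1 and Drp2. The ranges of neighbouring groups below the parietal cells overlapped in every case but 1, the step from ER organoids to chief cells for Plpp1. The last place went to EGFNWR organoids for Minar1, Drp2 and Kif5c, to ER organoids for Cfap54 and Npl, and to glands for Plpp1.

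The glands took no part in choosing the genes, but the sorted arrays did, so the differences from glands are given without a test. The 6 genes were brighter on both parietal arrays than on both gland arrays, a condition that 41.6% of all genes met. Parietal minus glands was 1.45 (SE 0.34) for Minar1, 1.74 (SE 0.28) for Plpp1 and 1.49 (SE 0.28) for Cfap54. It was 0.98 (SE 0.18) for Drp2, 0.70 (SE 0.30) for Kif5c and 1.31 (SE 0.27) for Npl. The median of the 6 was 1.38, against 0.13 over all genes. Kif5c had the smallest difference, with glands at 5.67 ± 0.21 (SD, n = 2) and parietal cells at 6.37 ± 0.16 (SD, n = 2).

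Chief cells and glands were closer to each other. Chief minus glands was 0.20 (SE 0.25) for Plpp1, -0.02 (SE 0.25) for Cfap54, -0.02 (SE 0.17) for Drp2 and -0.12 (SE 0.25) for Npl, all less than their SE. For Minar1 it was -0.58 (SE 0.31), and chief c at 4.80 lay between the 2 gland arrays. Kif5c was the 1 gene of the 6 with all 3 chief arrays below both gland arrays, at -0.94 (SE 0.28); 15.1% of all genes met that condition. The median of the 6 was -0.07, against 0.05 over all genes. Leaving out chief c moved it to -0.27 and leaving out chief b to 0.01, which also turned Cfap54 to 0.09 and Npl to 0.04.

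Genes known from parietal cells give a scale for these values. Of 20 parietal markers, 13 were brighter on both parietal arrays than on all chief arrays, 18 were brighter than on both gland arrays, and 10 were brighter than on all 11 other arrays. Those 10 included the chloride carriers Slc26a7 and Slc26a9, the potassium channels Kcnq1, Kcnj15 and Kcnj16, and the receptors for histamine (Hrh2), acetylcholine (Chrm3) and gastrin (Cckbr). The markers had a median difference of 0.70 between parietal and chief cells and of 0.79 between parietal cells and glands. Atp4a, the catalytic subunit of the proton pump, differed by 0.15 (SE 0.23) and 0.36 (SE 0.25). It stood at 12.61 to 13.22 on all 7 arrays, near the top of the scale. The 6 genes, chosen for their difference, lay in the range of the markers, whose own largest parietal minus chief value was 2.17.

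**Figure D2:**
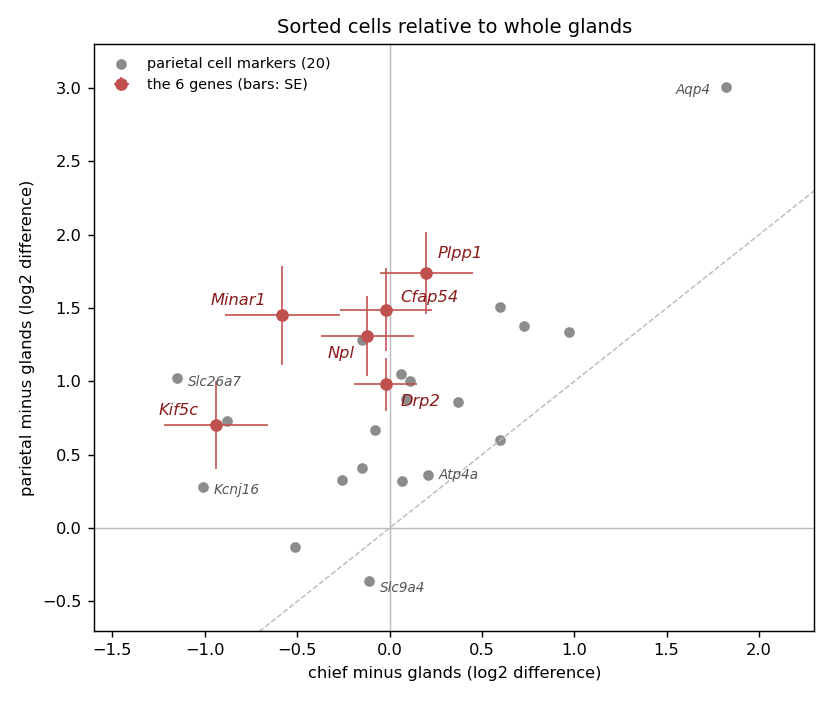
Log2 difference of sorted parietal cells (vertical) and sorted chief cells (horizontal) from whole glands, for the 6 genes (red, bars show the SE) and 20 parietal markers (grey); the dashed line marks equal differences. All 6 genes lie above the dashed line, as the rule that chose them requires, Kif5c (-0.94) and Minar1 (-0.58) lie farthest to the left, and Plpp1 is the 1 gene of the 6 to the right of 0.

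Markers of other cell types were read on the same arrays, since Cfap54, Drp2 and Kif5c are known from ciliated cells, Schwann cells and neurons. Of 6 ciliated cell markers only Tppp3 was above an array median, and Foxj1, the master regulator of motile cilia, was below it on all 13 arrays. The log2 summed level of this list was 7.51 to 8.77 on chief arrays, 6.97 and 6.98 on parietal arrays, and 7.33 and 7.11 on glands a and b. It was 6.89 to 7.56 on EGFNWR organoids and 6.70 to 6.85 on ER organoids. Of 8 neuron and Schwann markers, only the synaptic gene Snap25 and S100b were above an array median on any array. Their sum was 7.39 to 7.58 on chief arrays, 7.55 and 7.69 on parietal arrays, and 8.01 and 7.60 on glands a and b. Snap25 was higher on glands (6.04 to 7.05) than on chief arrays (5.10 to 5.68), as was Kif5c. On parietal arrays, where Kif5c was highest, Snap25 was 5.34 to 5.53. The part of nerve transcripts in the gland level of Kif5c was not tested.

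Of 10 macrophage markers, Csf1r, Cd68 and Lyz2 exceeded an array median on some array. The summed level was 8.15 and 7.93 on parietal a and b, within or below the 8.14 to 9.50 of the chief arrays. The summed level of the endothelial list was highest on the parietal arrays, as the 6 genes were, at 8.80 and 8.61. It was 8.27, 7.40 and 8.50 on chief a, b and c, and 7.34 and 7.14 on glands. Below the parietal arrays the course differed: every chief array had a higher endothelial sum than both gland arrays. For the 6 genes the median chief minus glands difference was -0.07, with 1 of the 6 positive. The endothelial list as a whole moved less than its sum. Its median was 0.14 for parietal minus chief, with 4 of 6 genes positive, and 0.34 for parietal minus glands, with 6 of 6 positive. Only Vwf and Esam of its 6 genes were above an array median on any array. Esam, an adhesion molecule of endothelial junctions, was 8.10 to 8.47 on parietal arrays. It was 6.15 to 7.96 on chief arrays and 5.82 to 6.44 on glands. Pecam1, Cdh5, Kdr and Emcn were below the median of every array. The part of endothelial transcripts in the levels of the 6 genes was not tested.

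The next question was whether the partners of each gene were higher in parietal cells too. Around each of the 6 a list of genes of the same pathway was drawn up, the gene itself left out. No gene of the 6 lists passed limma's adjusted threshold of 0.05 between parietal and chief cells, and neither did any of the 18820 genes, a background of 0.0% in each direction. At an unadjusted p under 0.05, 6.26% of all genes were higher in parietal cells and 5.86% lower. Without chief c, 2.17% of all genes passed the adjusted threshold as higher and 4.84% as lower, and list genes that passed then are named below; the 6 list medians were then between 0.09 and 0.28. With the replicate block 5 of the 144 list genes passed as higher and 11 as lower. In the first experiment only chief c has the letter c. A block on letters there fits chief c exactly and so takes it out, as leaving it out does. Genes named for an unadjusted p were picked after their values were seen, and their limma adjusted p was between 0.348 and 0.402.

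For Minar1, 17 of 18 genes of Notch2 signalling and mTOR control were measured, with a median parietal minus chief difference of 0.09. Notch2 itself was 5.53 to 5.89 on the parietal arrays and 6.20 to 7.87 on the chief arrays, a difference of -1.50 (SE 0.45). Eif4ebp1, a repressor of translation that mTOR switches off, differed by -0.76 (SE 0.24). These 2 had an unadjusted p under 0.05, and none was higher at that level. Without chief c, Notch2, Eif4ebp1 and Deptor passed the adjusted threshold as lower. Of the brightest genes of the list, the mTOR inhibitor Deptor differed by -0.59 (SE 0.26) and the brake on Rheb Tsc2 by 0.50 (SE 0.28). Minar2, the relative of Minar1, was below the median of all 13 arrays.

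For Plpp1, 28 of 31 genes of lysophosphatidate and sphingosine phosphate turnover and their receptors were measured, with a median of 0.06. At an unadjusted p under 0.05, 3 were higher in parietal cells and 3 lower. The higher ones were the phosphatidate phosphatase Lpin1 (0.83, SE 0.27), the lipid kinase Agk (0.63, SE 0.24) and the receptor Lpar4 (0.42, SE 0.17), the last below the median of all 13 arrays. The lower ones were the phospholipase Liph (-1.55, SE 0.40), the related phosphatase Plpp3 (-1.36, SE 0.41) and the receptor Lpar6 (-0.61, SE 0.19). Plpp3 was 7.97 to 9.13 on chief arrays and 7.14 to 7.35 on parietal arrays, the opposite direction to Plpp1. Without chief c, Liph and Plpp3 passed the adjusted threshold as lower. The brightest phosphatases of the family, Plpp2 and Plpp5, differed by -0.46 (SE 0.32) and -0.61 (SE 0.27).

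For Cfap54, 31 of 35 motile cilium genes were measured, with a median of 0.02. None was higher at an unadjusted p under 0.05, and 2 were lower: Tppp3, a tubulin-binding protein, at -2.18 (SE 0.49), and Rsph9, of the radial spokes, at -1.29 (SE 0.38). Without chief c, Tppp3, Rsph9 and Cfap69 passed the adjusted threshold as lower. Rfx2, a transcription factor of ciliated cells and a bright gene of the list, differed by -0.26 (SE 0.25). The highest value among the 31 genes was 0.29 (SE 0.17), for Foxj1, against 1.50 for Cfap54.

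For Drp2, 21 of 27 genes of the dystrophin-associated complex and its Schwann cell partners were measured, with a median of 0.12. Dystrobrevin beta (Dtnb) was higher at an unadjusted p under 0.05, at 0.53 (SE 0.22), and epsilon-sarcoglycan (Sgce) lower, at -2.11 (SE 0.64). Sgce passed the adjusted threshold without chief c. The brightest genes, dystroglycan (Dag1) and syntrophin (Sntb1), differed by -0.24 (SE 0.21) and -0.45 (SE 0.30). The dystrophin relative utrophin (Utrn) was above the median of all 13 arrays and differed by -0.24 (SE 0.23), while dystrophin (Dmd) was below the median of all 13.

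For Kif5c, 19 of 25 kinesin-1 motors, light chains and adaptors were measured, with a median of 0.17. A positive value was seen for 14 of the 19, and for 10526 of all 18820 genes. At an unadjusted p under 0.05, 4 were higher and none lower. They were Fez2 (1.21, SE 0.43), Mapk8ip1 (0.71, SE 0.28), Map7 (0.60, SE 0.19) and Spag9 (0.41, SE 0.17), all adaptors or microtubule-bound partners of the motor. Fez2 passed the adjusted threshold without chief c. Kif5b, the kinesin-1 heavy chain of most tissues, was 9.61 to 9.78 on parietal arrays and 9.58 to 9.96 on chief arrays. Its difference was -0.10 (SE 0.20). The mitochondrial adaptor Trak2, a bright gene of the list, differed by 0.54 (SE 0.26), and the neuronal Kif5a was below the median of all 13 arrays.

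For Npl, 28 of 31 genes of sialic acid synthesis, transfer and breakdown were measured, with a median of 0.06. At an unadjusted p under 0.05, 4 were higher: the sialyltransferases St3gal5 (1.96, SE 0.76), St3gal1 (1.73, SE 0.58) and St3gal3 (0.76, SE 0.23) and the sialidase Neu2 (0.48, SE 0.19). The 3 lower ones stand in consecutive steps of sialic acid synthesis: Gne (-0.65, SE 0.26), Nans (-1.36, SE 0.34) and Nanp (-0.54, SE 0.23). Nans was 6.38 to 6.92 on parietal arrays against 7.36 to 8.51 on chief arrays. Without chief c, St3gal1 and St3gal5 passed the adjusted threshold as higher and Nans as lower. Ctsa, the lysosomal protein that protects sialidase, was the brightest gene of the list with Gne and differed by 0.04 (SE 0.17).

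**Figure D3:**
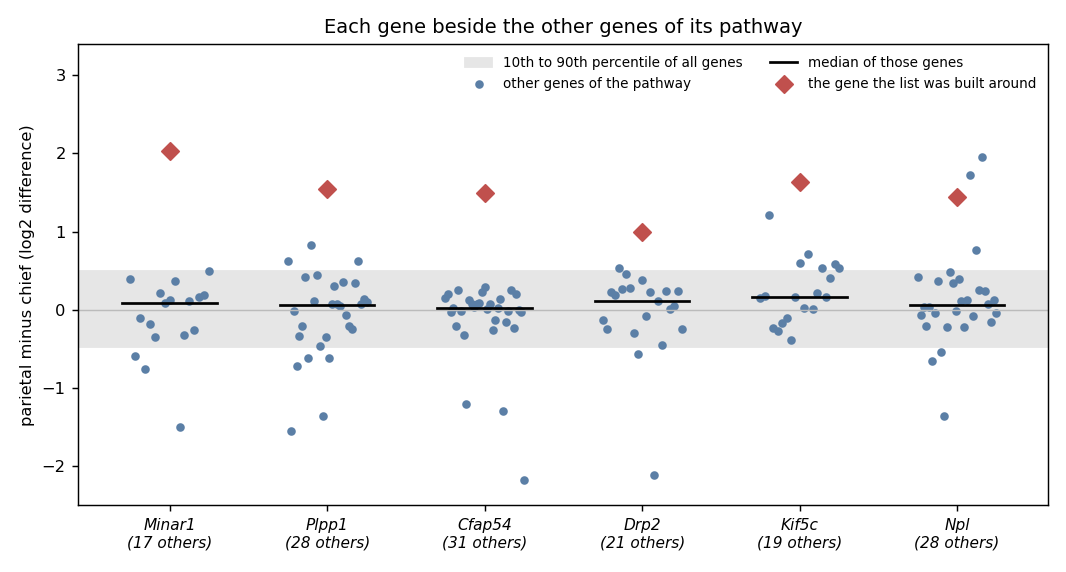
Parietal minus chief log2 difference of each of the 6 genes (red diamonds) beside the other measured genes of its pathway (blue points, black line at their median); the grey band holds the middle of all genes, from the 10th to the 90th percentile (-0.48 to 0.50). The 6 list medians lie between 0.02 and 0.17, and St3gal5 and St3gal1 are the list genes above the gene their list was built around.

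Against glands, no gene of the 6 lists passed limma's adjusted threshold in parietal cells, where 0.228% of all genes were higher and 1.39% lower, or in chief cells, where 0.128% were higher and 0.351% lower. At an unadjusted p under 0.05, between 1 and 6 genes per list were higher and 1 to 5 lower in parietal cells than in glands, and 0 to 3 in each direction in chief cells. Of all genes, 9.85% were higher and 11.0% lower in parietal cells than in glands at that level, and 6.35% and 8.69% in chief cells. The counts of 0 did not hold under every alternative. With array weights, 14 of the 144 list genes passed as higher and 14 as lower in parietal cells than in glands, among them 6 and 2 of the kinesin-1 list and 2 and 5 of the Plpp1 list. With all 13 arrays in 1 fit these counts were 10 and 13, and with the replicate block 5 and 9. With dim genes left out Liph, Cfap69 and Nanp passed as lower, and with trend and robust eBayes Cfap69 did. Chief cells gave 1 higher and 5 lower than glands with all 13 arrays in 1 fit, and 2 and 2 with the block. Without chief b, Notch2, Liph, Cfap69, Jakmip1 and Nanp passed as lower in parietal cells than in glands; without chief c, Notch2, Liph, Cfap69, Sgce, Jakmip1, Nanp and Nans did, and Neu2 passed as higher; without glands a, Lpar1, Lpar2 and Cfap45 passed as lower. Between chief cells and glands, Cfap43 passed as higher without chief a, Tppp3 as higher and Cfap69 as lower without chief c, and Sntb1 as higher and Cfap45 as lower without glands a.

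The organoid arrays took no part in choosing the genes, and here the 6 could be tested. Plpp1 rose in ER medium, from 6.56 ± 0.40 to 7.36 ± 0.32 (SD, n = 3 each), a log2 difference of 0.81 (SE 0.23, 95% interval 0.27 to 1.35, limma adjusted p = 0.0485) or 1.75-fold. It was higher in ER in all 3 cultures, by 0.95, 0.75 and 0.72 in a, b and c. With the culture letter as a block the limma adjusted p was 0.00416, and over all alternatives it ran from 0.00416 to 0.16. The call was lost when any single array but EGFNWR c was left out, with adjusted p = 0.0568 in limma without ER b.

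Kif5c was 4.42 ± 0.18 in EGFNWR and 5.33 ± 0.58 in ER (SD, n = 3 each), a difference of 0.90 (SE 0.27, 95% interval 0.28 to 1.53) that just missed the threshold (limma adjusted p = 0.054). It passed with the culture letter as a block (limma adjusted p = 0.038), and the adjusted p ran from 0.0208 to 0.162 over the alternatives. All 3 cultures were higher in ER, by 1.64 in a but by 0.55 and 0.52 in b and c, so the size rests on ER a. Without ER a the difference was 0.58. The EGFNWR arrays and ER b lay below their array medians, so no level of Kif5c above background was shown on them.

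The other 4 genes did not pass, with or without the block. ER minus EGFNWR was 0.09 for Minar1 (95% interval -0.13 to 0.31, limma adjusted p = 0.597) and 0.16 for Drp2 (-0.18 to 0.49, adjusted p = 0.533). It was -0.16 for Cfap54 (-0.41 to 0.09, limma adjusted p = 0.378) and -0.16 for Npl (-0.40 to 0.08, adjusted p = 0.358). These 4 genes were below the array median on all 6 organoid arrays, so no level above background was shown for them there. Thus 1 of 6 genes passed as higher, where 9.13% of all genes did, and 0 of 6 as lower in limma, where 10.1% did; at an unadjusted p under 0.05, 2 were higher and 0 lower, against 15.2% and 16.6% of all genes. With the block 2 of 6 passed as higher, against 10.3% of all genes, and 0 as lower, against 13.3%. Plpp1 and Kif5c were also the 2 genes with all ER arrays above all EGFNWR arrays, where 17.8% of all genes were. The median of the 6 differences was 0.12, against 0.01 over all genes.

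**Figure D4:**
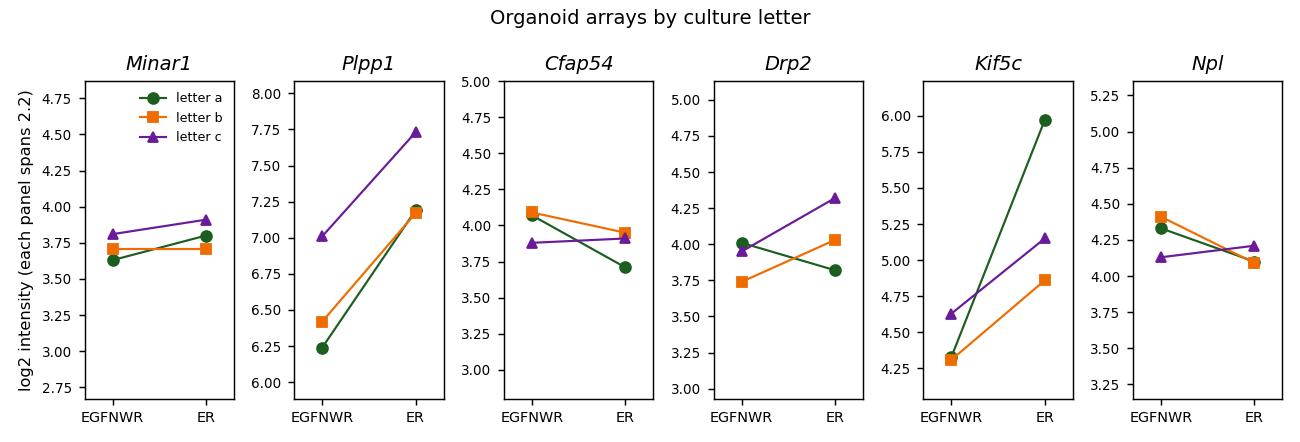
Level of the 6 genes in the organoid arrays, in log2 intensity, with a line joining the EGFNWR and ER array of each culture letter; every panel spans the same number of log2 units. Plpp1 rises along 3 near-parallel lines, Kif5c differs most in culture a, and the lines of the other 4 genes cross or stay flat.

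The log2 summed level of the 20 parietal markers was 14.04 to 14.13 on EGFNWR and 14.37 to 14.53 on ER arrays, and 12 to 14 of the 20 lay above the median of each organoid array. Their median ER minus EGFNWR difference was -0.03, and 9 of the 20 were positive, as were 9652 of all 18820 genes. In limma 4 of the 20 passed the adjusted threshold as higher in ER and 3 as lower, against 9.13% and 10.1% of all genes. Atp4a was above the median on all 6, at 5.66 to 6.38 in EGFNWR and 5.09 to 5.11 in ER medium. Atp4b was 4.27 to 4.72 on the 6 organoid arrays, below their medians. Markers of pit cells, the mucous cells of the gland opening, all rose in ER medium, 6 of 6 with a median of 2.65, among them Muc5ac by 3.82 (SE 0.79) and Gkn1 by 3.69 (SE 0.63). Without single arrays between 2 and 6 of the 6 passed. Of 10 macrophage markers 2 passed as higher. Cd68, at 0.87 (limma adjusted p = 0.0107), passed whichever array was left out. The call of Csf1r, at 1.33 (limma adjusted p = 0.0486), was lost with the block (adjusted p = 0.0513) and without EGFNWR a, b or c or ER c. Between 0 and 1 of the 8 neuron and Schwann markers passed as higher when single arrays were left out, with S100b at 0.51 when none was. Over their whole lists the median difference was 0.14 for macrophage markers and 0.06 for neuron and Schwann markers. Plpp1 was higher in the same medium as the pit cell list, and the part of these cell types in its level was not tested.

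Among the partners of Plpp1, 3 of 28 rose and 3 fell in ER medium, against 9.13% and 10.1% of all genes. Lpar1, a receptor for lysophosphatidate, rose by 1.03 (limma adjusted p = 0.00446), and the sphingosine phosphate lyase Sgpl1 rose by 0.63 (adjusted p = 0.00817). Plppr2, an inactive relative of the phosphatases, fell by 0.61 (adjusted p = 0.00743). These 3 calls held whichever single array was left out; that of Lpar3, at 0.66 (adjusted p = 0.0328), was lost without EGFNWR a, EGFNWR b, ER a or ER c. With the block 4 rose and 5 fell, against 10.3% and 13.3% of all genes. Without single arrays between 2 and 4 rose and between 2 and 4 fell.

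Among the partners of Kif5c, 3 of 19 rose and 2 fell, against 9.13% and 10.1% of all genes. The light chain Klc4 rose by 0.64 (limma adjusted p = 0.00609) and Map7d1, which helps kinesin-1 onto microtubules, by 0.53 (adjusted p = 0.0113), both whichever array was left out. Jakmip1 rose by 0.66 (adjusted p = 0.0225) and Hap1, which binds huntingtin, fell by 0.89 (adjusted p = 0.0162), and both calls were lost without EGFNWR a, EGFNWR b or ER a. With the block 5 rose and 2 fell, against 10.3% and 13.3% of all genes. Kif5b differed by 0.23 (SE 0.10).

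Of the genes that did not pass, Npl had 4 of 28 partners that rose and 2 that fell, against 9.13% and 10.1% of all genes. Gne, the first enzyme of sialic acid synthesis, fell by 0.81 (limma adjusted p = 0.00563) and the lysosomal sialidase Neu1 rose by 0.72 (adjusted p = 0.00785), whichever array was left out. Cmas, which activates sialic acid, rose by 0.62 (adjusted p = 0.0133), a call lost without EGFNWR a, and St3gal5 by 1.07 (adjusted p = 0.0279), lost without EGFNWR a, EGFNWR b, ER a or ER b. With the block 5 rose and 5 fell, against 10.3% and 13.3% of all genes.

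Of the motile cilium genes 3 of 31 rose and 4 fell, against 9.13% and 10.1% of all genes, with 0 to 3 falling when single arrays were left out. Cfap69 rose by 1.24 (limma adjusted p = 0.00576) and Cfap43 by 0.94 (adjusted p = 0.011), whichever array was left out. The call of Cfap45, at 1.06 (adjusted p = 0.0281), was lost without EGFNWR a or b. That of Tppp3, at -1.32 (adjusted p = 0.0275), was lost without EGFNWR b, EGFNWR c, ER a or ER c.

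For Drp2, 0 of 21 partners rose in limma and 3 fell, against 9.13% and 10.1% of all genes. At an unadjusted p under 0.05, 0 were higher and 8 lower, against 15.2% and 16.6% of all genes. Sntb1 fell by 1.08 (limma adjusted p = 0.00979) and the mannosyltransferase Pomt2 by 0.86 (adjusted p = 0.0105), both whichever array was left out, and Dag1 by 0.34 (adjusted p = 0.0483), a call lost whichever array was left out. For Minar1, 2 of 17 rose and 2 fell, beside the same shares of 9.13% and 10.1% of all genes. Notch2 rose by 0.46 (limma adjusted p = 0.0239) and its ligand Jag1 by 0.44 (adjusted p = 0.0195), while the ligand Jag2 fell by 0.92 (adjusted p = 0.0232) and the mTOR subunit Mlst8 by 0.61 (adjusted p = 0.0131). Each of these 4 calls was lost without EGFNWR b or ER a, and without either array none of the list passed.

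Genes with a like course over the arrays were named by the highest Pearson correlation, as a description. The 13 arrays share 5 groups, so a high value mainly says that the same group is high. Cfap54 and Npl were each other's nearest gene of all 18820, at r = 0.991 over 13 arrays, followed by the orphan receptor Gpr37 (0.983) and the potassium channel Kcnc2 (0.979) for Cfap54, and by Kcnc2 (0.972) and Mir485 (0.965) for Npl. Minar1 was nearest to the channel partners Kcnip4 (0.97) and Cacnb4 (0.968) and the amino acid transporter Slc38a4 (0.968). Slc38a4 was 7.54 in parietal cells, 4.92 in chief cells and 5.28 in glands as group means.

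Plpp1 was nearest to Rbm31y (0.933), the glycerol phosphate acyltransferase Gpat3 (0.929) and Arhgap10 (0.914), Rbm31y being below the median of all 13 arrays. Gpat3 was 6.96 in parietal cells, 5.66 in chief cells, 5.82 in EGFNWR and 6.32 in ER organoids. Kif5c was nearest to the carrier Slc22a15 (0.925), Rufy3 (0.915) and Mat2b (0.914), all above the median of all 13 arrays. Drp2 was nearest to Adam33 (0.962), Dppa3 (0.952) and Rgcc (0.945), of which Adam33 and Dppa3 were, like Drp2, below the median on every array.

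Over the 7 arrays of the first experiment the nearest genes were others, except for the pair of Cfap54 and Npl seen from Cfap54 (0.991) and Slc22a15 for Kif5c (0.983). They were Zkscan14 (0.991), Begain (0.99) and Gmnn (0.983) for Minar1, Bag4 (0.995), Bcdin3d (0.985) and Trdv2-2 (0.982) for Plpp1, and Slc35f3 and Limch1 (both 0.99) for Cfap54. For Drp2 they were Limch1 and Mir539 (both 0.99) and Cfap54 (0.982), and for Kif5c also Tlr3 (0.985) and Rtn1 (0.973). For Npl they were Kcnk13 (0.994), Mir484 (0.993) and Ptprj (0.992). Of these, Begain, Trdv2-2, Mir539, Rtn1, Kcnk13 and Mir484 were above the median on none of the 13 arrays, so no level above background was shown for them. Among the 6 genes r ran from 0.67 to 0.991 over 13 arrays and from 0.748 to 0.991 over 7. The lowest values over 13 arrays involved Plpp1 or Kif5c, the 2 genes that differed most between the organoid media.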

How the data were processed

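The authors deposited log2 values of 13 Affymetrix arrays, made with RMA in Affymetrix Power Tools per the submitters' processing notes, with no versions given in the sources read. RMA brings the arrays to nearly 1 distribution, which hides shifts of all genes at once. No detection call was used.

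Of 35556 probesets 21218 had 1 gene symbol in the platform annotation, 1881 had several and 12457 had none; 21185 were found in RefSeq (GRCm38.p6), and 0 symbols changed. A gene was read on its brightest single-symbol probeset over the 13 arrays, giving 18820 genes (1386 had more than 1 probeset).

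Linear models were fitted with limma 3.58.1 under R 4.3.3 (lmFit, then eBayes), with Benjamini-Hochberg adjustment over all genes and a threshold of 0.05. The 7 arrays of the first experiment and the 6 organoid arrays were fitted separately, without a block. Organoid letters were taken to pair arrays: the design text has each culture in both media, and same-letter arrays deviated together from their group means (r = 0.184, 0.233 and 0.386). Organoid arrays of unlike letter had r from -0.305 to 0.146. The highest of these, between EGFNWR b and ER a, was near the 0.184 of letter a, so the values alone hardly separate a from b. In the first experiment the same-letter values did not settle a pairing (0.263 and 0.11 between chief and parietal arrays, -0.194 and 0.0693 between chief and gland arrays, 0.0267 between parietal and gland arrays). The fits were also run on simulated data with independent normal noise. Those data held no outlying array like chief c and no pairing by letter, so the run does not bear on these features.

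The 6 genes and all lists were chosen with earlier results of these data known. Named were the 6 genes and their other probesets, the defining markers, up to 4 list genes past the threshold by size or else the 2 brightest, and the 3 most correlated genes; others are said to be picked after their values were seen, or stand for a cell type marker list. Some symbols were followed through RefSeq synonyms.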

Additional observations from a re-analysis of the deposited data

How the results depend on the processing

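Alternatives were repeated quantile normalization, centring, leaving out dim genes, trend and robust eBayes, array weights, all 13 arrays in 1 fit, other probeset rules, the replicate block and leaving out each array. Of 468 alternative values for the 6 genes and their medians, 7 changed sign, all for chief minus glands. The total overstates how much was tried. Some settings return the main difference by the form of the fit, as parietal minus chief does without a gland array. The sign of parietal minus chief also chose the genes. With the mean of both probesets Cfap54 was 0.14; without single arrays it ran from -0.22 to 0.09, Drp2 from -0.08 to 0.02, Npl from -0.33 to 0.04 and the median of the 6 from -0.27 to 0.01. The median of parietal minus glands was 1.22 with dim genes left out, where 2 of the 6 remained, and ran from 1.21 to 1.48 without single arrays; for parietal minus chief it ran from 1.35 to 1.71.

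In the organoids, Plpp1 and Kif5c both passed (2 of 6) with repeated quantile normalization, centring, array weights or the replicate block, which pairs the arrays by letter; 0 passed with all 13 arrays in 1 fit or every probeset tested, and 0 to 1 without single arrays (Plpp1 without EGFNWR c, Kif5c without ER b). With dim genes left out only Plpp1 remained, so that the median was its own 0.81. The block changed no other call of the 6 genes.

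Counts over all genes moved more. Between parietal and chief cells 0 genes passed. Without chief c 409 were higher and 910 lower, and with the block, which also takes chief c out, 682 and 968. With all 13 arrays in 1 fit the counts were 71 and 95. Parietal minus glands gave 43 higher and 261 lower, chief minus glands 24 and 66, and organoids 1719 and 1894. Without single arrays these ran from 0 to 359 and 2 to 1047, from 4 to 222 and 13 to 216, and from 872 to 1629 and 1028 to 1889. With array weights the parietal minus glands counts were 1393 and 1809, with the block 562 and 1037, and with all 13 arrays in 1 fit 1106 and 1601; chief minus glands gave 400 and 815 in the last. The cause was not tested. Signal over background limits Drp2 most, Minar1, Cfap54 and Npl outside the parietal arrays, and Kif5c on chief a and b, the EGFNWR arrays and ER b.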
